A study of Homo sapiens with 9 samples.

Results

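Merged FAIRE-seq regions were examined that had a peak in both lists labelled rottlerin (NS rottlerin and SW rottlerin) and in neither list labelled DMSO (NS DMSO and SW DMSO). The regions were chosen by joining peaks of the 4 lists that overlapped or touched on the autosomes, X and Y, and 3435 of 40703 merged regions met the rule, or 8.44%. FAIRE, formaldehyde-assisted isolation of regulatory elements, recovers DNA that is depleted of nucleosomes, and its peaks mark open chromatin at promoters and enhancers. The cells were Jurkat, an established human T cell leukaemia line, in a model of transcriptional memory that holds 9 libraries, 1 for each state and treatment and 1 of total input. By the labels, NS cells had no stimulus, and SW cells had PMA and ionomycin for 4 h and were then washed and cultured for 1 day. Rottlerin, a kinase inhibitor used against protein kinase C, was given by the labels at 15 µM for 1 h beforehand, and the DMSO libraries received the solvent in its place.

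The paper's methods give a shorter stimulation than the labels do, and which of them holds could not be settled here. The source of the cells behind each list was also not certain. The labels give the lists to NS and SW cells with either treatment, whereas the paper's methods call peaks on the DMSO libraries of every cell state, and merging the lists gives the total stated for those states. The labels may therefore not match the cells, and rottlerin and cell state cannot be told apart here. Each list is named by its label only, and no value below is a measure of rottlerin. With 1 library per list there was no spread between replicates, no test between lists was made and no p-value is given. Intervals are 95% Wilson intervals of a share or 95% Newcombe intervals of a difference between shares. They cover counting error only, and regions of 1 library are not replicates. A peak list does not give the read depth, which is unknown here, and a missing peak means only that none was called in that library.

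The 4 lists held between 18977 and 30409 peaks, and the list labelled SW rottlerin was the longest. Of 8 genes that mark T cells or this line, 5 or 6 had a peak within 1 kb of a transcription start site (TSS) in each list, among them CD3D, CD3E, LCK, BCL11B and GATA3. CD2 had none in any list, and CD3G had one only in the list labelled NS DMSO. TAL1 had one only in the lists labelled SW DMSO and SW rottlerin. Of the other blood cell markers, 0 of 4 myeloid and 0 of 2 erythroid genes had one in any list. The B cell factor PAX5 was the exception, with a peak in the lists labelled NS DMSO and SW rottlerin.

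**Figure D1:**
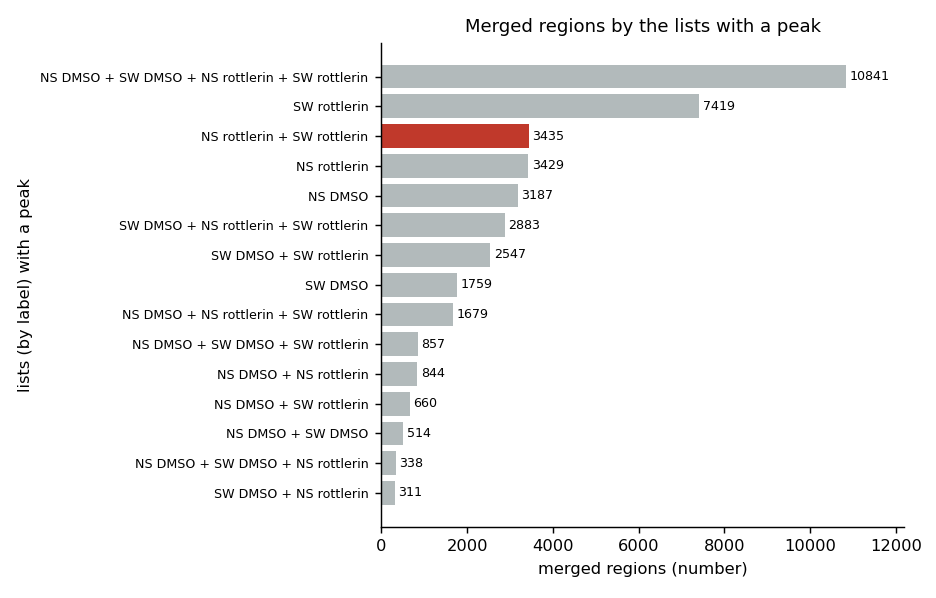
Number of merged regions (x axis) by the lists, named by label, that had a peak in them (y axis). The red bar gives the 3435 regions in both rottlerin-labelled lists only, against 514 regions in both DMSO-labelled lists only and 10841 in all 4 lists.

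Open chromatin away from promoters is set by transcription factors that bind short DNA words. In T cells these include ETS factors such as ETS1, the T lineage factors GATA3 and RUNX1, and the signal-driven factors AP1 and NFAT, which act downstream of protein kinase C and of calcium with calcineurin. Jurkat cells carry an active TAL1 oncogene, whose protein binds DNA beside GATA3 and RUNX1. The sequences of 8 of the regions show the words that the results below turn on. Each is the central 300 bases of the region, from GRCh37 (Hg19), plus strand, 5′ to 3′.

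The first group holds the 3 regions with the highest lower score (the score in the list where it was lower) that had both an ETS and a GATA match, chosen after the motif shares were seen. Capitals mark the ETS words CAGGAAG or CCGGAAG and the GATA words AGATAA or TGATAA, on either strand. The first lies in an intron of WDFY4, a gene known for antigen cross-presentation, at chr10:50161472-50161771. The second lies in an intron of ACAP2, which encodes an Arf GTPase-activating protein, at chr3:195146622-195146921. The third lies in an intron of ZFAND6 at chr15:80394799-80395098.
WDFY4 intron: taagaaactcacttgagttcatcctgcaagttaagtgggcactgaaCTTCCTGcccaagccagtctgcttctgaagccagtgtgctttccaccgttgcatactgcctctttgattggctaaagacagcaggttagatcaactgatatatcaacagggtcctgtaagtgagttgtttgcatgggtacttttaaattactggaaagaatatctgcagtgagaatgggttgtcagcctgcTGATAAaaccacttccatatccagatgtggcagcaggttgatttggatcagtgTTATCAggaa
ACAP2 intron: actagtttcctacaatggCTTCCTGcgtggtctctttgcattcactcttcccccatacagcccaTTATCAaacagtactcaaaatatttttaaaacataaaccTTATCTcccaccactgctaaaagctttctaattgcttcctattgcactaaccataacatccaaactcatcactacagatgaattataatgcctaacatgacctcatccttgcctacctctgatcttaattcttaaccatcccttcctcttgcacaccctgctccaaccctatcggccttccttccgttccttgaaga
ZFAND6 intron: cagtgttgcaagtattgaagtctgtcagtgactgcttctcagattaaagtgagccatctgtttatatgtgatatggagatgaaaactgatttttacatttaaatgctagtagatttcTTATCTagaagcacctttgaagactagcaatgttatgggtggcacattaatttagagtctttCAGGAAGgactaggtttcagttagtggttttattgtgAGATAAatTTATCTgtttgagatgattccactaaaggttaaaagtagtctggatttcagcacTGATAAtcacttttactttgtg

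The WDFY4 and ACAP2 windows held 1 ETS and 2 GATA matches each, and the ZFAND6 window held 1 ETS and 4 GATA matches. Scores in the lists labelled NS rottlerin and SW rottlerin were 166 and 140 at WDFY4, 152 and 128 at ACAP2, and 105 and 103 at ZFAND6.

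The second group holds the 3 regions with the highest lower score that had an AP1 match, with the AP1 word TGACTCA (or its reverse complement) in capitals. They lie between genes on chromosome 10 at chr10:45220275-45220574, between genes on chromosome 3 at chr3:102767222-102767521, and in an intron of the non-coding gene SLC12A2-DT at chr5:127374361-127374660.
Chromosome 10, intergenic: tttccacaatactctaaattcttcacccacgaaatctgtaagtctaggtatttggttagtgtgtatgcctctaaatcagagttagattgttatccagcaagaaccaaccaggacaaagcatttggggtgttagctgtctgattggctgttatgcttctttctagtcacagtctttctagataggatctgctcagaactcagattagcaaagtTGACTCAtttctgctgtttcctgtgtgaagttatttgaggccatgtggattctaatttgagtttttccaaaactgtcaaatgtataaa
Chromosome 3, intergenic: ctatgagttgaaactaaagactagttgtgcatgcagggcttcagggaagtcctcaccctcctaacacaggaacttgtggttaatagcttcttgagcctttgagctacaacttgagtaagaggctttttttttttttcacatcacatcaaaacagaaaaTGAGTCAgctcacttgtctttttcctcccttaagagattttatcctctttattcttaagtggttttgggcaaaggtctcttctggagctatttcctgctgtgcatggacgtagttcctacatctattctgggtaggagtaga
SLC12A2-DT intron: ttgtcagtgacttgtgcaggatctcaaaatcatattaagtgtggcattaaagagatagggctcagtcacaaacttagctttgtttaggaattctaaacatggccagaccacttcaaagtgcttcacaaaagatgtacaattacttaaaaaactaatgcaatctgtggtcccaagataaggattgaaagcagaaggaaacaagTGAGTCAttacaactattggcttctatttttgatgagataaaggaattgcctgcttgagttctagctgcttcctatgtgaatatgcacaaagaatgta

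These AP1 regions had scores of 136 and 163, 132 and 104, and 94 and 141 in the lists labelled NS rottlerin and SW rottlerin. The AP1 word of the chromosome 3 region lay 11.5 bp from the centre, and those of the others 65.5 and 55.5 bp from it.

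The third group holds the first 2 regions with no AP1 but an NFAT match, with the NFAT word GGAAAA (or its reverse complement) in capitals. The first lies in an intron of MMP2, a matrix metalloproteinase gene, at chr16:55455139-55455438, and the second lies between genes at chr21:32994785-32995084, 37.0 kb before the TSS of SOD1.
MMP2 intron: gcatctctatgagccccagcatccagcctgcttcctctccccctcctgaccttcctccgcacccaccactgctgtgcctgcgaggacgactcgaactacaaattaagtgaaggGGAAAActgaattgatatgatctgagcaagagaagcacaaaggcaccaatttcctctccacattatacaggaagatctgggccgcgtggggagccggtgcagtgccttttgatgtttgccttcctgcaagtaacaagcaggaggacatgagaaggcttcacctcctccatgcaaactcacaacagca
Chromosome 21, intergenic: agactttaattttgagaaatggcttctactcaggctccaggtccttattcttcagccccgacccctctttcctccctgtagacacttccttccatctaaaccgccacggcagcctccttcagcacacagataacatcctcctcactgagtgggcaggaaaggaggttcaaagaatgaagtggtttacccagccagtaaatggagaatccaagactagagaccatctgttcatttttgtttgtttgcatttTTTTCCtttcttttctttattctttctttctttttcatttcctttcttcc

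The MMP2 region had scores of 97 and 115, and the chromosome 21 region had scores of 118 and 90.

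The score of a peak is 10 times the −log10 of its q-value without decimals, and the fold enrichment is that over total input. Because the presence of peaks chose the regions, these values are a description. In the list labelled NS rottlerin the scores ranged from 10 to 189, with a median of 42 and quartiles of 29 and 59. In the list labelled SW rottlerin they ranged from 10 to 188, with a median of 41 and quartiles of 28 and 57. These medians lay below the medians of the whole lists, 57 and 53, and 26.4% and 29.9% of the regions exceeded them. Median fold enrichment was 3.76 and 3.73. Their median lower score was 33, against 81 where all 4 lists had a peak. By the highest score of a region, the median was 51, against 32 and 31 for the lists labelled NS rottlerin and SW rottlerin alone, 51 for both DMSO-labelled lists only and 119 for all 4 lists.

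Scores were higher in the list labelled NS rottlerin in 1787 regions, higher in the list labelled SW rottlerin in 1598, and equal in 50. Across the 3435 regions, Spearman's rho between both scores was 0.379, and it was 0.761 across the 10841 regions in all 4 lists, which span a wider range. The ratio of the folds, NS rottlerin over SW rottlerin, had a median of 1.01, and from the 5th to the 95th percentile it ran from 0.738 to 1.36. It lay beyond 1.5 in either direction in 3.09% of the regions, 46 towards the first list and 60 towards the second.

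**Figure D2:**
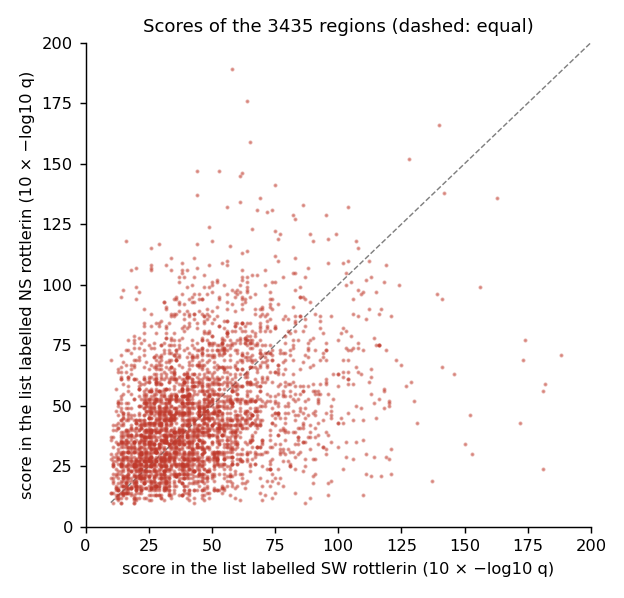
Score of each of the 3435 regions in the list labelled SW rottlerin (x axis) and in the list labelled NS rottlerin (y axis), both as 10 times −log10 q, with equal scores on the dashed line. Points lie on both sides of the line and most are below 60 on either axis, with medians of 41 and 42.

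At the threshold, 272 regions had a lower score of 10 to 15, and the weakest had scores of 10 and 11. Just outside it, 4562 regions had both rottlerin-labelled peaks and 1 DMSO-labelled peak, and that peak had a score of 10 to 15 in 160 of them. Of the 3435 regions, 665 had both scores at 50 or more and 18 had both at 100 or more. The nearest peak of either DMSO-labelled list was a median of 18.8 kb away, and it was within 1 kb of 103 regions (3.0%). Their median width was 288 bp, against 201 and 218 bp for the lists labelled NS rottlerin and SW rottlerin alone, 270 bp for both DMSO-labelled lists only and 445 bp for all 4 lists. In 3428 of them there was 1 peak from each list. They made up between 6.5% and 9.32% of the merged regions on every autosome.

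The strongest region by its lower score was the WDFY4 intron shown above, and the next lay 0.081 kb before the TSS of PPDPF, a gene named for pancreatic progenitor differentiation, with scores of 138 and 142 and 42 CpG in 300 bp. It held no match of the AP1, NFAT, ETS, GATA or RUNX families and 3 GC boxes. The chromosome 10 and ACAP2 regions shown above followed. The fifth lay in an intron of WASF3, an actin regulator, with scores of 110 and 112. The sixth was intergenic, 30.5 kb before ABTB3, with scores of 108 and 119. The seventh lay in an exon of ENSG00000232347 on chromosome 1, 0.084 kb before the TSS of the non-coding gene ENSG00000290683, with scores of 115 and 108. The eighth lay in an intron of ZBTB16, which encodes the zinc finger factor PLZF of innate-like T cells, with scores of 118 and 107. It was 0.008 kb before a TSS of that gene, but inside the gene. The ninth was the chromosome 3 region shown above, and the tenth lay in an intron of OSBPL9, a lipid-transfer protein gene, with scores of 110 and 104. These 10 lay in a promoter, introns, an exon and intergenic sequence, and between 5.41 and 81.2 kb from the nearest DMSO-labelled peak.

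The regions with the largest score differences were named by the same measure. Towards the list labelled NS rottlerin these were a chromosome 8 region 1.64 kb before the pseudogene RPL30P9 (189 against 58), the promoter of TM4SF5 (176 against 64), and an intron of PLXNA4, a semaphorin receptor gene (147 against 44). Towards the list labelled SW rottlerin the first was a 3′ UTR on chromosome 7, within the non-coding gene LINC02889 (24 against 181). It lay 5.51 kb before a TSS of that gene. The others were an exon of C8orf17 within TRAPPC9 (43 against 172) and a region 33.5 kb from the TSS of LAIR2 (56 against 181).

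By mid-point, 59.5% of the regions lay in introns, 15.1% were intergenic, 6.99% were in promoters (the 1 kb before a TSS), 6.2% lay 1 to 10 kb before a TSS, 6.17% were in exons, 4.28% in 5′ UTRs and 1.78% in 3′ UTRs. Introns and intergenic sequence together held 74.6% (73.1 to 76.0) of them. That share was 49.9% in regions with a peak in all 4 lists, a difference of 24.7 percentage points (22.9 to 26.4). It was 79.1% in the list labelled NS rottlerin alone and 78.5% in the list labelled SW rottlerin alone, and the shared regions differed from these by −4.56 points (−6.55 to −2.57) and −3.93 points (−5.67 to −2.21). Within 1 kb of a TSS lay 910 regions (26.5%), and 225 (6.55%) were over 50 kb from one.

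CpG-island-like sequence, with over 50% GC and an observed to expected CpG ratio over 0.6 in the central 300 bp, was found in 15.4% (14.2 to 16.6) of the regions. It was found in 50.2% of regions in all 4 lists, in 6.07% of those in the list labelled NS rottlerin alone and in 10.1% of those in the list labelled SW rottlerin alone. Of the regions within 1 kb of a TSS, 53.7% were CpG-island-like, against 1.58% of those farther away. The set therefore joined a promoter group, with a median GC content of 61.2%, to a larger distal group at 43.3%.

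Motifs were sought on both strands of the central 300 bp. Sequence took no part in the rule. GATA words were the most frequent of the T cell families, in 1483 regions or 43.2% (41.5 to 44.8), against 31.5% of all merged regions. In the lists labelled NS rottlerin and SW rottlerin alone they were in 40.5% and 40.0%. The differences from these were 2.69 points (0.361 to 5.02) and 3.13 points (1.14 to 5.13). ETS words were in 1041 regions or 30.3% (28.8 to 31.9), against 24.0% of all merged regions, and in 33.2% and 19.5% of those single lists. NFAT words were in 26.8%, RUNX words (TGTGGTT or TGCGGTT) in 15.9% and AP1 words in 13.3%, against 29.3%, 19.7% and 13.2% of all merged regions. GATA words were present at least 2 times in 510 regions, and the ETS word CAGGAAG was in 26.4% while the promoter form CCGGAAG was in 4.66%. The letters of GATA forms overlap in part, and a match is a word in the sequence, not a bound site.

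Away from promoters, over 1 kb from every TSS, 51.7% (49.7 to 53.6) of 2525 regions held a GATA word and 30.3% (28.5 to 32.1) held an ETS word. In distal regions with a peak in all 4 lists these shares were 35.9% and 25.1%, differences of 15.8 points (13.3 to 18.2) and 5.2 points (2.98 to 7.43). RUNX words were less frequent, 18.1% against 32.5%, a difference of −14.4 points (−16.4 to −12.3), as was the E-box CACCTG, which E proteins and ZEB repressors bind, at 14.3% against 23.2%, a difference of −8.82 points (−10.7 to −6.92). The shares were closer in the distal regions of the lists labelled NS rottlerin and SW rottlerin alone, which held RUNX words in 17.5% and 19.4%, differences of 0.61 points (−1.44 to 2.67) and −1.3 points (−3.08 to 0.536). They held CACCTG in 484 of 2841 and 972 of 5936 regions, differences of −2.7 points (−4.64 to −0.748) and −2.04 points (−3.67 to −0.345). Another E-box form, CATCTG, was not less frequent than in all 4 lists, at 25.7% against 25.3%, a difference of 0.417 points (−1.73 to 2.59). Reweighting the regions of all 4 lists to the GC content of the distal regions gave 38.9% for GATA, 23.8% for ETS, 33.9% for RUNX and 21.5% for CACCTG. Reweighting them to the score gave 35.9%, 22.7%, 26.1% and 21.7%.

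The mirror set, regions in both DMSO-labelled lists only, was compared in the same way. Of its 429 distal regions, 39.2% held a RUNX word and 36.1% held CACCTG, and the distal regions described here differed from it by −21.0 points (−25.9 to −16.3) and −21.8 points (−26.6 to −17.2). Its shares with an ETS word and a GATA word were 12.6% and 29.1%, lower by 17.7 points (13.8 to 21.0) and 22.5 points (17.7 to 27.1), and its AP1 share was 6.99%, lower by 8.81 points (5.68 to 11.3). The E-box CAGCTG was in 107 of these 429 regions against 354 of the 2525 described here, a difference of −10.9 points (−15.4 to −6.81), and CAGCTG was in 17.1% of all merged regions. For CATCTG the difference was −2.7 points, with an interval from −7.44 to 1.72. The share with an NFAT word was 27.0% against 29.0%, a difference of 1.99 points with an interval from −2.73 to 6.36.

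**Figure D3:**
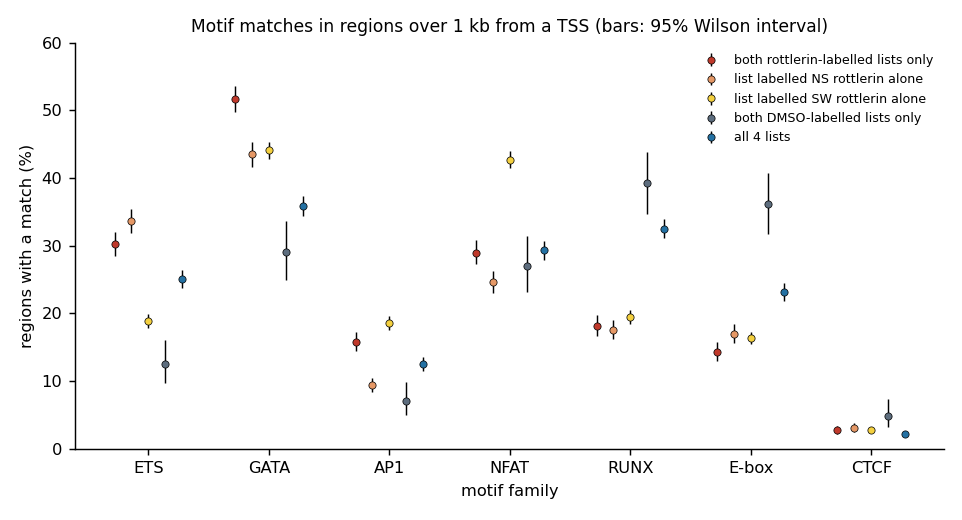
Percentage of regions over 1 kb from a TSS with at least 1 match of each motif family in the central 300 bp (y axis), for the regions in both rottlerin-labelled lists only (red) and 4 compared sets, with 95% Wilson intervals as bars. The red point is highest for GATA, at 51.7%, and E-box stands for CACCTG.

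The regions in only 1 rottlerin-labelled list differed from each other, and over 1 kb from a TSS the shared regions stood between them in ETS, AP1 and NFAT. In distal regions of the list labelled NS rottlerin alone, ETS words were in 33.6%, AP1 in 9.4% and NFAT in 24.6%. In those of the list labelled SW rottlerin alone, ETS words were in 18.9%, AP1 in 18.6% and NFAT in 42.7%. The shared distal regions, at 30.3%, 15.8% and 29.0%, differed from the first by −3.36 points (−5.85 to −0.857), 6.4 points (4.63 to 8.2) and 4.46 points (2.09 to 6.84). They differed from the second by 11.4 points (9.36 to 13.5), −2.81 points (−4.52 to −1.05) and −13.7 points (−15.9 to −11.5). GATA did not stand between, since the shared distal regions exceeded both single lists, by 8.18 points (5.5 to 10.8) and 7.58 points (5.25 to 9.9). Within 1 kb of a TSS the order was another one for AP1, NFAT and GATA, but not for ETS. AP1 words were in 6.48% of the shared regions there against 9.86% and 10.8%, and GATA words in 19.6% against 25.9% and 23.8%, differences for GATA of −6.29 points (−10.7 to −1.97) and −4.24 points (−7.56 to −0.821). Reweighted to the GC content of the shared regions there, the single lists held AP1 words in 7.73% and 9.03% and GATA words in 16.3% and 19.2%. At that GC content the GATA share of the shared regions was not lower. NFAT words were in 20.8% against 22.1% and 32.0%, and ETS words in 30.4% against 31.1% and 22.3%.

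ETS, AP1 and NFAT shares were also compared inside the set. The regions were split into 4 equal bins of the fold ratio of both lists, from most towards SW rottlerin (median ratio 0.82) to most towards NS rottlerin (median ratio 1.23). The share with an NFAT word was 31.9% in the first bin and 22.6% in the last, a difference of −9.31 points (−13.5 to −5.11). The share with an AP1 word was 15.4% and 10.8%, a difference of −4.54 points (−7.74 to −1.35). The share with an ETS word was 23.4% and 33.1%, a difference of 9.66 points (5.41 to 13.9), and it was 31.3% and 33.4% in the middle bins. GATA words were in 45.1%, 39.8%, 39.2% and 48.7% of the successive bins. The last bin also had fewer CpG-island-like regions, 8.85% against 15.5% in the first, and their part in these differences was not tested. RUNX words, at 16.5% and 16.1%, differed by −0.466 points, with an interval from −3.96 to 3.03.

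**Figure D4:**
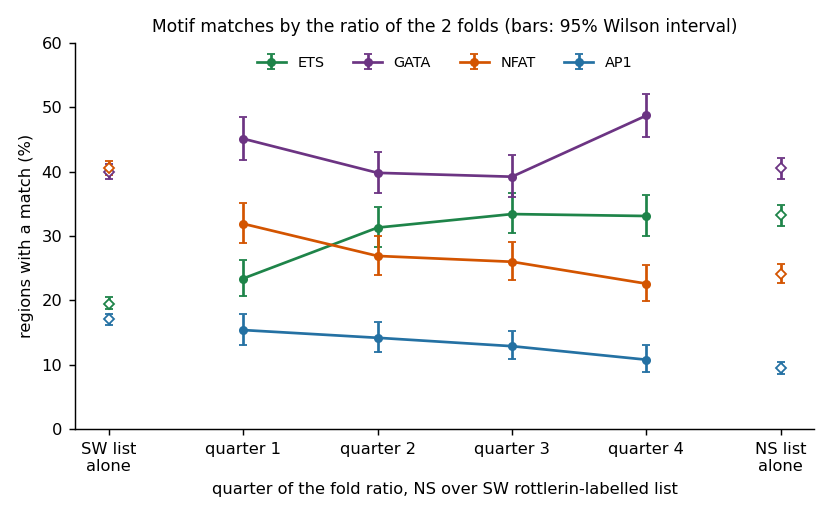
Percentage of regions with a match of 4 motif families (y axis) in 4 equal bins of the fold ratio, NS over SW rottlerin-labelled list, from lowest to highest (x axis) (filled points), with 95% Wilson intervals as bars. Open diamonds give the regions in 1 list alone, and NFAT goes from 31.9% to 22.6% while ETS goes from 23.4% to 33.1%.

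The score bore on the motifs as well. In 4 equal bins of the lower score, ETS words were in 23.7% of the weakest and 36.4% of the strongest bin, a difference of 12.7 points (8.37 to 16.9). GATA words were in 47.6% and 39.3%, a difference of −8.27 points (−12.9 to −3.58). AP1 words were in 12.8% and 12.7%. The strongest bin also had more CpG-island-like regions, 23.4% against 9.55%, and their part in these differences was not tested.

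Distance from genes separated the families. Within 1 kb of a TSS, 19.6% of the regions held a GATA word and 6.48% an AP1 word, and over 50 kb from one these shares were 60.9% and 21.8%. The GATA share also rose in all 4 lists (9.77% to 44.1%). In the lists labelled NS rottlerin and SW rottlerin alone it went from 25.9% to 46.0% and from 23.8% to 45.7%. In both DMSO-labelled lists only it was 22.4% and 25.0%. The AP1 share in these sets, in the same order, went from 3.12% to 15.7%, 9.86% to 8.33%, 10.8% to 18.9% and 4.71% to 6.25%. Median GC content here fell from 61.2% to 41.3%, and its part was not tested. ETS words were in between 29.0% and 31.2% of the regions described here in every distance group, but the ETS forms went in opposite directions. CAGGAAG was in 20.7% of those within 1 kb of a TSS and 28.5% of those farther away, and CCGGAAG was in 10.8% and 2.46%. GC boxes (GGGCGG), bound by SP factors at promoters, were in 50.3% of the regions within 1 kb of a TSS and 6.26% of those farther away. They fell likewise in all 4 lists, from 65.6% to 11.6%, and in the lists labelled NS rottlerin (28.4% to 4.61%) and SW rottlerin (40.8% to 7.9%) alone.

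Matches of several families gathered at the centre of the regions. Within 50 bp of the centre, ETS words numbered 1.73 per kb, against 0.417 per kb at 300 to 500 bp from it, a ratio of 4.14 (3.69 to 4.64). The ratio was 4.37 (3.67 to 5.21) for AP1, 4.24 (3.61 to 4.98) for RUNX, 2.18 (2.02 to 2.36) for GATA and 21.0 (11.3 to 38.9) for the insulator factor CTCF, which had a match in 2.27% of the regions. In regions with a peak in all 4 lists the ratio was 1.01 (0.941 to 1.09) for GATA, 1.92 (1.68 to 2.2) for AP1, 2.52 (2.35 to 2.69) for ETS and 4.31 (3.95 to 4.69) for RUNX, but 61.8% of those regions lay within 1 kb of a TSS against 26.5% here. Over 1 kb from a TSS, a comparison added after these values were seen, the ratios here and in all 4 lists were 2.3 (2.11 to 2.5) and 1.32 (1.21 to 1.44) for GATA, 5.02 (4.13 to 6.1) and 2.79 (2.35 to 3.3) for AP1, and 4.69 (4.09 to 5.37) and 2.62 (2.34 to 2.94) for ETS. For RUNX they were 4.45 (3.73 to 5.31) and 6.76 (6.04 to 7.55). Over all distances, regions in all 4 lists had a median width of 445 bp against 288 bp here, and the part of width in the ratios was not tested. NFAT words were not gathered at the centre, with a ratio of 0.756 (0.67 to 0.854) here and 0.853 (0.797 to 0.914) in all 4 lists. CACCTG was less dense there in both, with ratios of 0.485 (0.412 to 0.571) and 0.75 (0.695 to 0.81). The E-box form CATCTG was not, with ratios of 1.26 (1.11 to 1.43) and 1.07 (0.986 to 1.17). The ratio for NF-κB, 1.1 (0.808 to 1.51), did not differ from 1 within its interval.

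**Figure D5:**
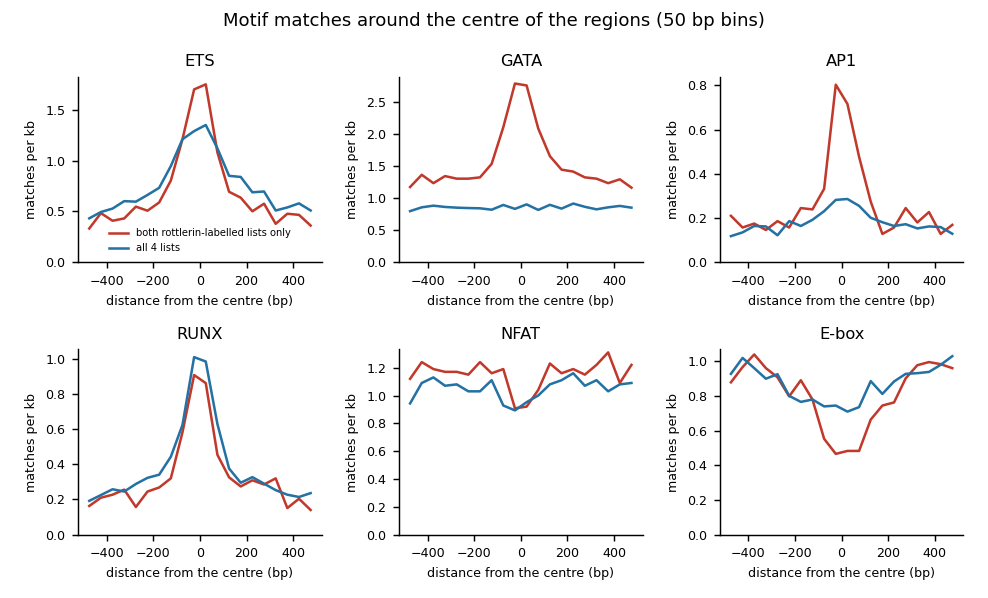
Motif matches per kb (y axis) by distance from the centre of the region in bp (x axis, 50 bp bins), for the regions in both rottlerin-labelled lists only (red) and in all 4 lists (blue), 1 panel per family. ETS, GATA, AP1 and RUNX show a central maximum in the red lines, GATA shows none in the blue line, and E-box (CACCTG) shows a central minimum.

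Pairs of families in 1 region were set beside the product of their shares. AP1 and NFAT words were found together in 4.28% (3.65 to 5.01) of the regions, where the product was 3.58%, and over 1 kb from a TSS in 5.11% (4.32 to 6.04), where it was 4.59%. ETS and GATA words were found together in 12.1% (11.1 to 13.3), where the product was 13.1%. GATA and RUNX words were found together in 8.21% (7.34 to 9.17), where the product was 6.88%, but over 1 kb from a TSS these values were 9.86% (8.76 to 11.1) and 9.37%. Of the 5 families AP1, NFAT, ETS, GATA and RUNX, none was matched in 765 regions, 1 in 1334, 2 in 951 and 3 or more in the rest, among them 2 regions with all 5.

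Genes near the regions were counted over 20136 protein-coding genes, of which 3603 (17.9%) had at least 1 region within 50 kb of the TSS. One region was near 3089 of them and 62 had 3 or more. Of 16 T cell cytokine genes, 10 had a region within 50 kb. Cytokine genes also had more merged regions of any kind around them, a median of 5.5 against 2.0 for all coding genes, and among all coding genes with 5 to 10 merged regions nearby 35.9% had one of the regions. IL3, a haematopoietic growth factor gene, had one 0.134 kb before its TSS (scores 27 and 31), which was also the one counted for CSF2. TNF, LTA and LTB shared 2 regions, the stronger with scores of 74 and 106. IL22 had one 19.3 kb from its TSS with scores of 36 and 110, and IL21 one 44.0 kb away with scores of 29 and 67. IL5, IL10 and TGFB1 were the others, with scores between 19 and 71. Of 10 chemokine genes, 0 had a region, and 0 of the 27 pairs of a chemokine gene and a merged region were with one, which allows a share of up to 11.1% against 7.22% for all coding genes.

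Of 21 genes of proximal T cell receptor signalling, 12 had a region within 50 kb, beside 17.9% of all coding genes. Their median number of merged regions nearby was 6.0 against 2.0 for all coding genes, and 9.09% of their pairs with a merged region were with one of the regions, against 7.22% overall. CD3D, CD3E and CD3G, subunits of the receptor, shared 1 (scores 60 and 46). ZAP70, the kinase recruited to the receptor, had 2, with scores of 17 and 78 and of 29 and 41. The adaptor LAT had one 0.207 kb from its TSS (59 and 81), PLCG1, which makes the second messengers for calcium and protein kinase C, had one in an intron (92 and 62), and MALT1 had one with scores of 88 and 35. FYN, RASGRP1, CD4, CD5 and CD6 had 1 each. Of 9 protein kinase C genes, 1 had a region (11.1%, beside 17.9% of all coding genes), and the share of pairs was 2.56% against 7.22% overall. The gene was PRKCQ, which encodes the theta isoform of T cells, with a region 3.79 kb from its TSS and scores of 35 and 47.

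The other lists also had more merged regions nearby than the 2.0 of all coding genes, with medians from 4.0 to 5.5, so their share of pairs is given beside the 7.22% over all coding genes. Of 10 genes of NFAT and calcineurin, 6 had a region (8 of 39 pairs, 20.5%): NFATC1, NFATC2, NFATC3, NFAT5, RCAN1, an inhibitor of calcineurin, and PPP3R1, its regulatory subunit. The NFATC3 locus held the most uneven of these, with scores of 19 and 137. Of 12 AP1 genes, 3 had a region (4.35% of pairs), JUNB, JUND and BATF, the last 0.051 kb before its TSS (28 and 45). Of 12 genes of the NF-κB family and its feedback, 5 had a region (11.3% of pairs): NFKB2, RELA, TNFAIP3, BCL3 and TRAF1. RELA had one 0.061 kb from its TSS with scores of 118 and 50. Of 8 EGR and NR4A genes, EGR2, EGR3 and NR4A1 had 1 each (6.52% of pairs). Of 20 receptor and ligand genes, 8 had a region (7.46% of pairs): IL21R, IL12RB2, IFNGR1, CD28, TNFRSF9, CD69, CD40LG and FASLG. Both IL12RB2 regions were higher in the list labelled NS rottlerin, with scores of 83 and 26 and of 48 and 14. Of 16 signalling feedback genes, 4 had a region (DUSP6, DUSP10, CISH and TRIB1; 5.75% of pairs), and of 23 transcription factors of the T lineage and of T cell leukaemia, 8 had one (TCF7, RUNX3, TCF3, ID3, ZEB1, ZEB2, IRF4 and BCL6; 6.62% of pairs). The shares of the AP1, EGR and NR4A, receptor, feedback and T lineage lists lay between 4.35% and 7.46%, against 7.22% over all coding genes. Of 10 housekeeping genes kept as a comparison, 1 had a region, GAPDH (2.33% of pairs).

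The genes with most regions within 50 kb had 4 each. They had between 6 and 13 merged regions of any kind nearby, against a median of 2.0 for all coding genes. Over all coding genes, 7.22% of pairs of a gene and a merged region were with one of the regions. BCL9L, a Wnt coactivator, CXCR5, the receptor that guides follicular helper T cells, and UPK2 shared the same 4 on chromosome 11, with lower scores of 48, 32, 41 and 21. SLAMF1, a self-ligand receptor of lymphocytes, had 4 of its own, 1 of them at its TSS with a lower score of 48. GZMK, a granule protease of T cells, and ESM1 shared 4, of which the strongest lay 0.031 kb from the TSS of ESM1 with a lower score of 52. AHR, a ligand-activated transcription factor, had 4 with lower scores from 14 to 43. MMP2 came next, with the highest summed lower score among genes with 3, namely 74, 97 and 41, and it had 4 merged regions nearby.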

How the data were processed

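FAIRE-seq peak lists of 4 Jurkat libraries were used, and the other 5 samples were not used here. The authors used cutadapt for trimming, Bowtie2 for alignment to Hg19, Picard for duplicate removal and MACS2, with total input as control, for broad peaks (versions not given in the sources used here). For each peak the deposited lists hold a score, a fold enrichment (a ratio to input), and both p-value and q-value on the −log10 scale. The lists hold peaks above the q-value cut-off of 0.05, and all were kept. Depth is unknown from the deposited lists.

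Peaks that overlapped or touched were merged. GENCODE release 44, lifted to GRCh37 (the coordinates of Hg19), placed each mid-point, with UTRs first and then exons, introns, promoters, upstream and intergenic sequence. Motifs were sought as consensus words in the central 300 bp. Compared regions were reweighted over 10 bins of GC content or of the highest score. The members, gene lists and motifs were chosen with earlier results of these data known. Named were the 10 regions with the highest lower score, the 8 coding genes with most regions within 50 kb, the 3 regions with the largest score difference towards each list, and genes of the lists with a region within 50 kb. Alternatives changed the merging, q-value cut-off, list length, score, distance from DMSO-labelled peaks, chromosomes, window and gene distance. The steps were tested on simulated data, and all simulated regions and planted motifs were recovered. Scripts ran on Python 3.11.15 with pandas 2.3.3, numpy 2.4.6, matplotlib 3.10.9 and pysam 0.24.0, beside samtools 1.23.1.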

Additional observations from a re-analysis of the deposited data

How the results depend on the processing

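No paired analysis was possible because each group has 1 library. Keeping touching peaks apart, taking only peaks at q of 0.05 or less, and taking the autosomes alone left the score, position, CpG, gene and motif results within their intervals and gave 3368 to 3435 regions. Cutting each list to 18977 peaks gave 1365 regions, with a median lower score of 50.0, 70.2% in introns or intergenic, 21.0% CpG-island-like, NFAT in 25.2%, ETS in 34.1%, GATA in 41.0% and 8.64% of coding genes. The higher-scoring 50% of each rottlerin-labelled list gave 466 regions, with values of 65.0, 67.8%, 23.6%, 23.2%, 37.6%, 39.5% and 3.24%, and AP1 in 11.6%. Without regions within 1 kb of a DMSO-labelled peak, 17.3% of coding genes had a region. In the central 500 bp, AP1 was in 16.0%, NFAT in 41.7%, ETS in 37.6% and GATA in 54.2%. Over 1 kb from every TSS, an alternative chosen after seeing the data, AP1 was in 15.8%, NFAT in 29.0% and GATA in 51.7%. With promoters placed first, 66.8% lay in introns or intergenic. Within 10 kb and 100 kb, 6.13% and 30.3% of coding genes had a region. The NFAT excess of 2.03 points over regions in all 4 lists turned to −2.94 points at the GC content and −0.956 points at the score of the regions described here. Peak presence depends on depth, which is unknown, and is read by labels that differ from the paper's methods.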

Other observations

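All 8192 words of 7 letters (each with its reverse complement) were counted in the central 300 bp, a search made after the motif shares were seen. The 3435 regions were set beside the other 37268 merged regions reweighted to their GC content. The word with the largest excess was CAGGAAG, in 26.4% against 18.1%, followed by ACTTCCT, in 22.6% against 15.3%. Without reweighting, CAGGAAG was in 30.8% and 17.1% of the regions in the lists labelled NS rottlerin and SW rottlerin alone. The first 9 words all held GGAA or its reverse complement, and the tenth was AGATAAG, in 11.4% against 6.79%. At the other end stood AACCACA, the RUNX word read on the other strand, in 14.6% against 19.1%, and TGGAAAA, which holds the NFAT word, in 7.86%, a difference of −3.1 points. Without reweighting, AACCACA was in 15.1% and 16.6% of the regions in the lists labelled NS rottlerin and SW rottlerin alone. CACCTGC was in 4.8% against 7.6%. These are descriptions of 1 library per list, with no test.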
